A study of Mus musculus with 9 samples.

Results

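The Notch genes described here are 9 of the 14108 genes with deposited counts: the receptors *Notch1*, *Notch2* and *Notch3*, the ligands *Jag1*, *Jag2* and *Dll1*, the DNA-binding effector *Rbpj*, and the target genes *Hes1* and *Hey1*. They were chosen by name as the receptors, ligands, effector and Hes or Hey targets to be followed, and each was listed in the counts of every tumour and tested. RNA was sequenced from GFP-positive cells sorted from 9 tumours, 3 of each of 3 mouse breast cancer models. HR1 is a mammary cancer line obtained from *PIK3CA*-mutant transgenic mouse tumours and called non-metastatic in the study. LM1 and LM9 are lines isolated from lung metastases of HR1 cells into which a doxycycline-inducible *piggyBac* transposon system had been introduced. Each model is thus 1 line, and the study uses the name HR1 for the parental line, before the transposon system was introduced. The labels give the same growth for all groups: 250000 cells in Matrigel and PBS were placed in the mammary fat pad of female NOD/SCID mice (NOD.CB17-Prkcd<scid>/J), which were 4 to 8 weeks old, and tumours were taken below 1500 mm3. The study used these models to ask about NFIB signalling in metastatic colonisation, and classed LM1 and LM9 as models with high and HR1 as a model with low *Nfib* expression.

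Notch receptors are membrane proteins that are cut when a ligand of the Jagged or Delta-like kind on a neighbouring cell pulls on them. The released intracellular domain enters the nucleus, joins RBPJ and a Mastermind coactivator on DNA, and switches on genes such as those of the Hes and Hey families of repressors. Without it, RBPJ binds corepressors and holds the same genes down. In the mammary gland the pathway takes part in the choice between luminal and basal fates, and ligands can also dampen receptors in the same cell.

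Total counts on genes ranged from 32393958 to 46681945 per tumour. The tumour labelled HR1 replicate 1 stood apart from its group. Its *Nfib* level was 1343 CPM (counts scaled to library size by TMM), against 23.9 and 18.3 CPM in HR1 replicates 2 and 3 and between 421 and 791 CPM in the LM tumours, so it went against the class of its model. Its log2 CPM correlated with the other HR1 tumours at r = 0.891 and 0.878, against 0.961 between those 2 and 0.986 or more between tumours of LM1 or of LM9. It was kept under its label. Comparisons of the 9 genes with HR1 are given with and without it, and for the other pathway genes as counts. Of the epithelial markers *Krt8*, *Cldn3*, *Cldn4* and *Cldn7* were not among the listed genes and *Epcam* lay between 0.0254 and 4.49 CPM. *Krt14*, a basal keratin, was well expressed in some tumours, with 1.56, 31.4 and 109 CPM in HR1, 152 to 175 CPM in LM1 and 12.2 to 15.4 CPM in LM9. Fibroblast markers were abundant, at a summed 23200 to 36500 CPM in HR1, 10300 to 13700 CPM in LM1 and 8900 to 10400 CPM in LM9. In LM1 and LM9 together 9 of the 10 were lower, where 23.6% of all genes were. HR1 replicate 1 differed from replicates 2 and 3 in both directions. *Dcn* was 17600 against 432 and 329 CPM, and *Col1a2* 44.2 against 1470 and 2730 CPM. Nothing says that the tumours of a model came from separate cultures, and p-values measure the spread between these tumours only.

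The 9 genes lie on 6 chromosomes of GRCm38 (mm10). *Notch1* (26457902 to 26503822, minus strand) and *Jag1* (137081451 to 137116520, minus) are on chromosome 2. *Notch2* (98013538 to 98150367, plus) and *Hey1* (8663359 to 8667038, minus) are on chromosome 3, and *Notch3* (32120820 to 32166896, minus) and *Dll1* (15367354 to 15376932, minus) on chromosome 17. *Rbpj* (53555779 to 53657445, plus) is on chromosome 5, *Jag2* (112907803 to 112929812, minus) on chromosome 12 and *Hes1* (30065357 to 30067796, plus) on chromosome 16. Counts cover the exons of each gene, UTRs included. Of the 50-base stretches in the exons, the length of 1 read, 10.3% were shared with other annotated genes for *Rbpj*, 3.76% for *Notch2* and 0.0866% for *Notch3*, and none for the other 6. For *Rbpj* these genes include its pseudogenes *Rbpj-ps1* and *Rbpj-ps3* and many others, such as *Nedd4* and *Insr*. Exons of *Notch1*, *Notch3* and *Dll1* overlap annotated transcripts on the opposite strand. The strand setting of the counting is not stated, so reads of such partners cannot be told apart from those of the gene.

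RefSeq promoter sequences (GRCm38.p6, 250 bases before to 50 after the start) were at hand for 7 of the 9 genes. They are shown for the 3 receptors, whose relative levels differed between tumours, and for *Rbpj*, up to the first annotated exon base and 5′ to 3′ on the strand of the gene. Capitals mark TGGGAA or its reverse TTCCCA, the core letters bound by RBPJ, and TTGGC or its reverse GCCAA, the half-site of NFI proteins such as NFIB. No match to one motif overlapped a match to the other.
*Notch1*, chr2:26503825-26504072, minus strand: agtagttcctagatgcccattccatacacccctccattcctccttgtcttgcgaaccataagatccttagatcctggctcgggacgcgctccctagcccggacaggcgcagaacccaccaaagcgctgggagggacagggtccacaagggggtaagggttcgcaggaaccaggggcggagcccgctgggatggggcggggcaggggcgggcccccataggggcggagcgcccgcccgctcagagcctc
*Notch2*, chr3:98013288-98013526, plus strand: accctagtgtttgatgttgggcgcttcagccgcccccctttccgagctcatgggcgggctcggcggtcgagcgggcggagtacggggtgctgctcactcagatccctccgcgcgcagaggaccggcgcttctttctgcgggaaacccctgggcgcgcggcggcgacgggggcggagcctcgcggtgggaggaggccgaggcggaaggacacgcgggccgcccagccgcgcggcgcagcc
*Notch3*, chr17:32166897-32167140, minus strand: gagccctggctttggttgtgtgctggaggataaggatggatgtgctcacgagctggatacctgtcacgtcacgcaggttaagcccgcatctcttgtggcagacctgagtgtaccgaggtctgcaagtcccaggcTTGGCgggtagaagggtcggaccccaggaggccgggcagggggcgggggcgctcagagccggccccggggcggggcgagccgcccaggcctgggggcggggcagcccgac
*Rbpj*, chr5:53590096-53590213, plus strand: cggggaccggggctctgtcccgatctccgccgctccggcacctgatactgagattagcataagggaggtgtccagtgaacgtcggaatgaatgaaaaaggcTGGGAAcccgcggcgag
The RBPJ letters occurred in the full windows of 1 of the 7 genes, *Rbpj* itself, and in those of 28.3% of all 27025 genes. One of the *Rbpj* matches is in the stretch shown, and the other lies after the first annotated exon base in the window. The *Rbpj* windows begin at 53590096 and 53590236, inside the gene, whose span starts at 53555779. The NFI half-site occurred in 3 of the 9 windows of these genes, 1 each of *Notch2*, *Notch3* and *Dll1*, and in 46.7% of all 32851 windows. The GC content of the 9 windows lay between 55.7% and 86.0%, against a median of 52.7% over all windows. Such matches are a description of the letters and not of binding.

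Compared per length, *Hes1* and *Notch2* had the highest levels among the 9 genes. Levels are given here as RPKM, which is CPM divided by the exon length in kilobases. This length joins the exons of all GENCODE transcripts of a gene, 14232 bases for *Notch1* and 12750 for *Rbpj*. The order between genes and the shares of summed RPKM depend on it. In HR1, *Hes1* reached 27.8 ± 2.51 RPKM (mean ± s.d., n = 3), followed by *Notch2* (9.44 ± 2.20), *Notch3* (9.31 ± 8.74), *Jag1* (3.22 ± 1.44) and *Rbpj* (2.74 ± 1.17). *Notch1* (1.86 ± 0.348), *Hey1* (1.48 ± 0.712) and *Dll1* (1.18 ± 0.931) came after them, and from *Notch2* down to *Dll1* each gene overlapped the next. *Jag2* (0.0595 ± 0.0502) came last, apart from the others. In LM1 the order was *Hes1* (32.1 ± 3.03), *Notch2* (18.9 ± 3.88) and *Notch1* (3.79 ± 0.887), each apart from the next. *Rbpj* (1.95 ± 0.200), *Notch3* (1.86 ± 0.385), *Jag1* (1.39 ± 0.325) and *Dll1* (1.25 ± 0.191) came after them, and neighbours among these 4 overlapped. *Hey1* (0.706 ± 0.124) and *Jag2* (0.322 ± 0.0703) were lowest and did not overlap. In LM9, *Hes1* (16.8 ± 4.11) overlapped *Notch2* (16.1 ± 0.440), and *Notch1* (7.35 ± 1.12) overlapped *Notch3* (6.55 ± 1.48). *Rbpj* (3.94 ± 0.0723), *Dll1* (1.90 ± 0.339), *Jag1* (1.27 ± 0.172), *Jag2* (0.284 ± 0.0610) and *Hey1* (0.0160 ± 0.00412) followed without overlap. *Hey1* thus stood seventh in HR1 and last in LM9.

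**Figure D1:**
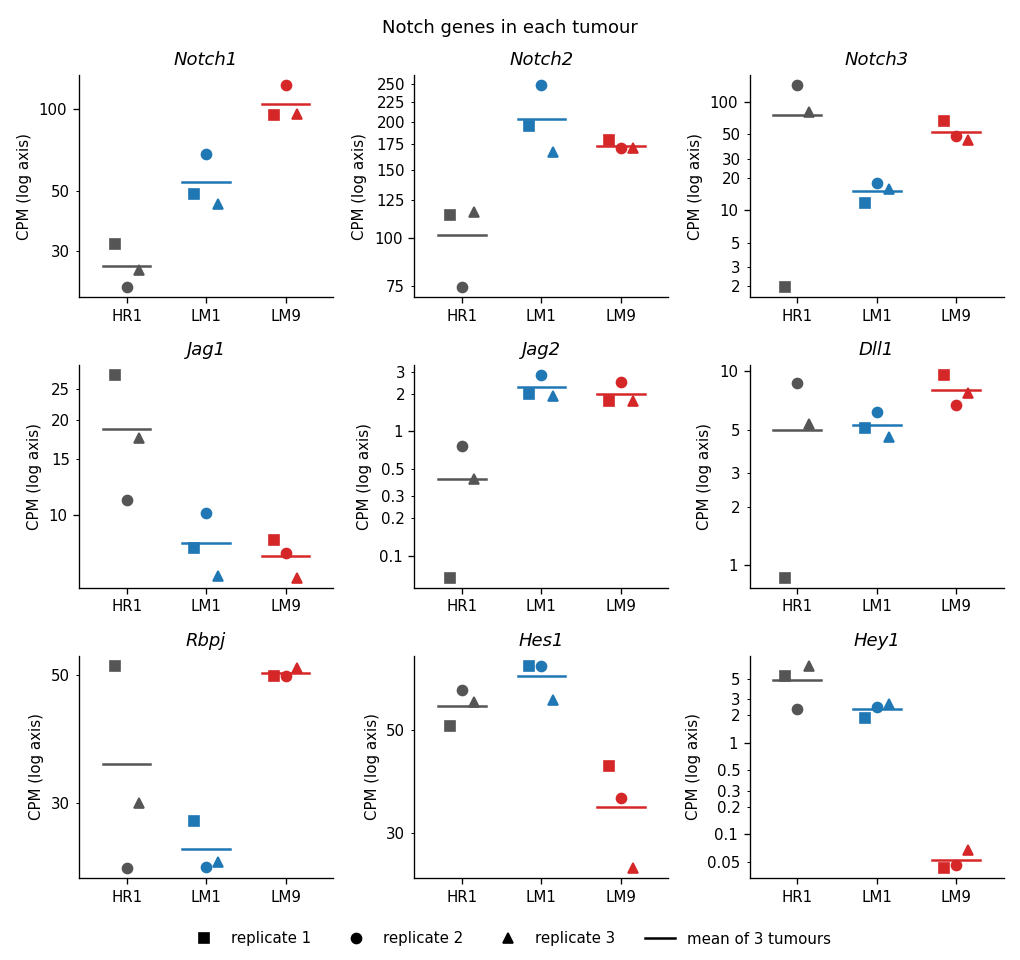
Level of each Notch gene in each tumour, in CPM on a log axis, with a panel per gene, a column per model and the horizontal line at the mean of 3 tumours. The squares in the HR1 columns are HR1 replicate 1, which lies far below the other HR1 tumours for *Notch3*, *Jag2* and *Dll1*, and the LM9 points for *Hey1* lie below 0.1 CPM.

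With LM1 and LM9 as one side against HR1, 5 of the 9 genes passed the test (edgeR's quasi-likelihood test, Benjamini-Hochberg adjusted p under 0.05 over all 14086 genes tested). *Notch1*, *Notch2* and *Jag2* were higher and *Jag1* and *Hey1* lower. Among all tested genes 43.6% passed, 19.9% higher and 23.6% lower. The median log2 fold change of the 9 genes was 0.02 against −0.05 for all tested genes. Every LM tumour lay on the same side of every HR1 tumour for 4 of the 9 genes, against 29.9% of all tested genes. When HR1 replicate 1 was left out, 7 of the 9 passed, where 56.0% of all genes did, with *Notch3* (lower) and *Rbpj* (higher) added.

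LM1 alone differed from HR1 in 4 of the 9 genes, *Notch1*, *Notch2* and *Jag2* being higher and *Jag1* lower. Of all tested genes 35.5% passed, 16.7% higher and 18.7% lower, and tumours did not overlap for 4 of the 9 genes and 45.6% of all genes. LM9 alone differed in 6 of the 9, since *Hes1* and *Hey1* were also lower. Here 42.3% of all genes passed, 20.4% higher and 21.9% lower, and tumours did not overlap for 6 of the 9 genes and 53.3% of all genes. The median log2 fold change was 0.09 for the 9 genes in LM1 and 0.52 in LM9, against −0.04 and −0.05 for all genes. Both comparisons use the same 3 HR1 tumours. Without HR1 replicate 1 they gave 5 of 9 genes (52.8% of all genes) for LM1, with *Notch3* added, and 8 of 9 (55.7% of all genes) for LM9, with *Notch3* and *Rbpj* added. With only the 6 tumours compared in the fit, 2 of the 9 passed for LM1, *Notch1* and *Notch2*, and the same 2 passed without LM1 replicate 1. In these fits 22.0% and 22.1% of all genes passed.

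LM9 differed from LM1 in 4 of the 9 genes, with *Notch1* and *Rbpj* higher and *Hes1* and *Hey1* lower. Among all tested genes 22.0% passed, 11.5% higher and 10.6% lower. No LM9 tumour overlapped with LM1 for 6 of the 9 genes (63.0% of all genes), the others being *Notch3* and *Dll1*, both higher in LM9. The median log2 fold change was −0.14 for the 9 genes and 0.00 for all genes. No HR1 tumour enters this difference, but the spread between HR1 tumours enters its test. With only the 6 LM tumours fitted, 6 of the 9 passed, *Notch3* and *Dll1* included, where 56.3% of all genes did. It was 5 of the 9 without HR1 replicate 1, *Notch3* included, where 45.5% of all genes passed. The count fell to 1 of the 9, *Hey1*, when LM1 replicate 1 was left out, where 8.16% of all genes passed. It fell to 2, *Hes1* and *Hey1*, without LM1 replicate 3 (9.68% of all genes) or without LM9 replicate 2 (10.3%).

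**Figure D2:**
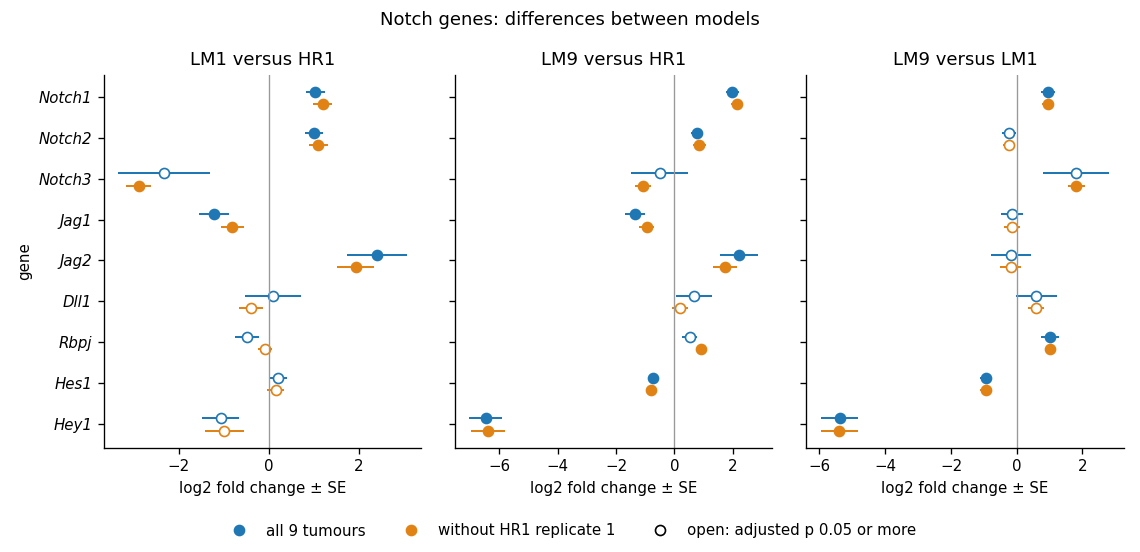
Log2 fold change of each Notch gene between models (points) with its standard error (bars), from edgeR over all 9 tumours (blue) and without HR1 replicate 1 (orange). Filled points passed an adjusted p of 0.05: *Notch3* is open with all tumours and filled without HR1 replicate 1 in the 3 panels.

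*Notch1*, the receptor best known from leukaemia and from T-cell development, rose from HR1 over LM1 to LM9. It measured 31.8, 22.0 and 25.4 CPM in HR1 replicates 1, 2 and 3, then 48.7, 68.3 and 44.7 CPM in LM1 and 95.03, 123 and 95.9 CPM in LM9. No tumour of any model overlapped with those of another. Its log2 fold change was 1.03 against HR1 in LM1 (standard error 0.21, adjusted p = 0.00646 by edgeR) and 1.99 in LM9 versus HR1 (0.22, adjusted p = 0.000342), that is 2.04-fold and 3.97-fold. Leaving out HR1 replicate 1, the values were 1.19 and 2.14, and both passed. LM9 exceeded LM1 by 0.96 (0.21, adjusted p = 0.0149). This last call was lost, with adjusted p of up to 0.0705 by edgeR, when LM1 replicate 1, LM1 replicate 3 or LM9 replicate 2 was left out.

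*Notch2*, which per length had the highest level of the 3 receptors in every tumour but HR1 replicate 2, rose in both LM models by about the same amount. HR1 had 114, 74.4 and 116 CPM, LM1 had 195, 249 and 167 CPM and LM9 had 179, 171 and 171 CPM. All 6 LM tumours were above the HR1 tumours, whereas LM1 and LM9 overlapped. The log2 fold change was 1.00 in LM1 (standard error 0.21, adjusted p = 0.00671 by edgeR) and 0.77 in LM9 (0.21, adjusted p = 0.0173). With HR1 replicate 1 left out they were 1.10 and 0.86, and both passed. LM9 and LM1 differed by −0.23 (0.21, adjusted p = 0.446), which did not pass. Leaving out LM9 replicate 1 or 2 ended the call of LM9 versus HR1, with adjusted p of up to 0.0567.

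*Notch3*, a receptor otherwise known from vascular smooth muscle and pericytes, varied most within HR1. HR1 replicate 1 had 1.96 CPM (59 counts), against 143 and 80.8 CPM in replicates 2 and 3. The LM1 tumours had 11.7, 17.8 and 15.8 CPM and the LM9 tumours 66.7, 48.2 and 44.1 CPM. Both LM models thus lay between the HR1 tumours, and each LM9 tumour was above each LM1 tumour. With all tumours no comparison passed: the log2 fold change was −2.32 against HR1 in LM1 (standard error 1.02, adjusted p = 0.107 by edgeR), −0.51 in LM9 versus HR1 (0.97, adjusted p = 0.699) and 1.81 in LM9 versus LM1 (1.00, adjusted p = 0.222). Without HR1 replicate 1 all 3 passed, at −2.88 (0.28, adjusted p = 4.52e-05), −1.07 (0.27, adjusted p = 0.00822) and 1.81 (0.26, adjusted p = 0.000606). The sign of LM9 versus HR1 turned to 0.72 (adjusted p = 0.659) in limma-voom, which did not pass either. Of the pericyte markers, the summed level of the 7 that were listed besides *Notch3* was 556 to 932 CPM in HR1, 238 to 243 CPM in LM1 and 121 to 157 CPM in LM9, most of it *Pdgfrb* and *Acta2*. In LM1 and LM9 together 3 of the 7 passed, all lower, namely *Pdgfrb*, *Acta2* and *Rgs5*, where 23.6% of all genes were lower. *Kcnj8* ran against the sum, with 26.7 to 35.8 CPM in LM1, 0.154 to 1.13 CPM in HR1 and 0.0225 to 0.107 CPM in LM9. *Rgs5*, a defining pericyte marker, lay between 0.0429 and 0.901 CPM, and *Myh11* and *Higd1b* were not among the listed genes. The cells were sorted for the GFP of the tumour lines. All 10 listed leukocyte markers were at 1 CPM or more in every tumour, *Ptprc* at 2.29 to 11.3 CPM. The part of host pericytes in the *Notch3* levels was not tested.

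The makeup of the receptors therefore differed between tumours. Of the summed RPKM of the 3 receptors, *Notch2* took 75.2% to 78.8% in LM1 and 52.0% to 56.5% in LM9, and *Notch1* took 14.9% to 15.9% in LM1 and 21.2% to 28.4% in LM9. *Notch3* took 6.29% to 9.49% in LM1 and 19.5% to 26.1% in LM9. In HR1 replicates 2 and 3, *Notch3* took 67.7% and 44.3% and *Notch1* only 5.92% and 7.92%. HR1 replicate 1 had 81.1% *Notch2* and 1.85% *Notch3*, shares closer to those of LM1 than to those of the other HR1 tumours. Its summed receptor level, 13.1 RPKM, was the lowest of the 9 tumours, the others lying between 20.6 and 31.5 RPKM.

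**Figure D3:**
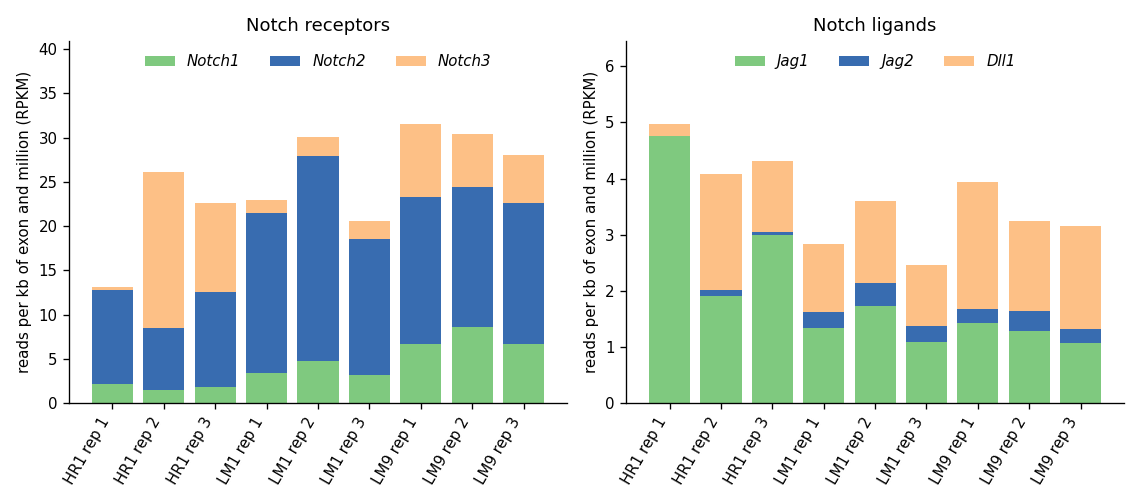
Stacked RPKM of the 3 receptors (left) and the 3 ligands (right) in each tumour, with the height of a bar giving the sum. The share of *Notch3* is 1.85% in HR1 replicate 1 and 67.7% in HR1 replicate 2, and *Jag1* makes up 95.7% of the ligand bar in HR1 replicate 1.

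*Jag1*, a ligand of the Jagged kind and itself a described Notch target, fell in both LM models. HR1 had 27.7, 11.1 and 17.4 CPM, LM1 had 7.81, 10.1 and 6.38 CPM and LM9 had 8.29, 7.53 and 6.30 CPM. Every LM tumour was below every HR1 tumour, although HR1 replicate 2 and LM1 replicate 2 lay close. The log2 fold change was −1.21 in LM1 (standard error 0.34, adjusted p = 0.0222 by edgeR) and −1.35 in LM9 (0.34, adjusted p = 0.0128). LM9 and LM1 did not differ beyond their spread (−0.14, standard error 0.33, adjusted p = 0.794). Without HR1 replicate 1, which had the highest level, the differences were −0.81 (adjusted p = 0.0242) and −0.95 (adjusted p = 0.0112). The call for LM1 was lost without LM1 replicate 1 or 3 (adjusted p up to 0.0788) or with only the 6 tumours compared (adjusted p = 0.0617), and that for LM9 without LM9 replicate 3 (adjusted p = 0.0521).

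*Jag2*, the other Jagged ligand, rose in both LM models from a very low level. HR1 had 0.0665, 0.765 and 0.412 CPM, which are 2, 34 and 16 counts. LM1 had 1.995, 2.81 and 1.93 CPM and LM9 had 1.74, 2.47 and 1.73 CPM, or 76 to 124 counts per tumour. All LM tumours lay above all HR1 tumours. The log2 fold change was 2.40 in LM1 (standard error 0.66, adjusted p = 0.0210 by edgeR) and 2.22 in LM9 (0.65, adjusted p = 0.0244), and it was 1.93 and 1.74 without HR1 replicate 1. LM9 and LM1 differed by −0.18 (0.61, adjusted p = 0.858). Both calls against HR1 were lost with only the 6 tumours compared in the fit (adjusted p = 0.0673 and 0.0703), for LM1 without LM1 replicate 1 or 2 (adjusted p up to 0.0705), and for LM9 without any 1 of the LM9 tumours (adjusted p up to 0.0769).

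*Dll1*, a Delta-like ligand, passed in no comparison with all tumours. HR1 had 0.865, 8.69 and 5.35 CPM, LM1 had 5.12, 6.16 and 4.57 CPM and LM9 had 9.55, 6.73 and 7.72 CPM. HR1 replicate 1 was again far below the others, and each LM9 tumour was above each LM1 tumour. The log2 fold change of LM9 versus LM1 was 0.60 (standard error 0.63, adjusted p = 0.521 by edgeR), and 0.58 (0.18, adjusted p = 0.0179) with only the 6 LM tumours in the fit. Against HR1 it was 0.09 in LM1 (0.62, adjusted p = 0.929) and 0.68 in LM9 (0.63, adjusted p = 0.405). Leaving out HR1 replicate 1, the LM1 value was −0.40 (0.27, adjusted p = 0.227), with the sign turned, and the LM9 value 0.19 (0.27, adjusted p = 0.563).

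Among these 3 ligands *Jag1* took 95.7% of the summed RPKM in HR1 replicate 1, 46.7% in replicate 2 and 69.3% in replicate 3. It took 44.6% to 48.3% in LM1 and 34.2% to 39.9% in LM9, where *Dll1* took 49.2% to 57.9%. *Jag2* took 0.192% to 2.70% in HR1, 10.1% to 11.3% in LM1 and 6.34% to 10.9% in LM9. The summed ligand level was 4.07 to 4.97 RPKM in HR1, 2.46 to 3.60 in LM1 and 3.16 to 3.94 in LM9, a sum of these 3 ligands only, which leaves out *Dll4* (24.7 to 35.4 CPM in LM1).

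*Rbpj*, which encodes the DNA-binding partner of all Notch receptors, was about 2.02-fold higher in LM9 than in LM1. LM1 had 27.9, 23.2 and 23.7 CPM and LM9 had 49.8, 49.6 and 51.3 CPM. HR1 spanned both, with 51.8 CPM in replicate 1 and 23.1 and 30.0 CPM in replicates 2 and 3. LM9 exceeded LM1 by 1.01 on the log2 scale (standard error 0.27, adjusted p = 0.0277 by edgeR), with no overlap. When any single LM tumour was left out the difference kept its size but not the call (adjusted p up to 0.0987), and it passed with only the 6 LM tumours in the fit (1.00, standard error 0.11, adjusted p = 2.71e-05). Against HR1, LM1 differed by −0.49 (0.26, adjusted p = 0.179) and LM9 by 0.52 (0.26, adjusted p = 0.139). Without HR1 replicate 1 these were −0.08 (0.15, adjusted p = 0.655) and 0.92 (0.15, adjusted p = 0.00075), the second of which passed. Without HR1 replicate 2 the LM1 difference passed instead, at −0.71 (adjusted p = 0.0421 by edgeR).

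*Hes1*, a repressor that is the most widely shared direct Notch target, fell in LM9 only as far as these tests show. HR1 had 51.0, 61.0 and 57.6 CPM, LM1 had 69.0, 69.0 and 58.3 CPM and LM9 had 41.8, 35.6 and 25.2 CPM. All LM9 tumours were below all the others, and HR1 and LM1 overlapped. The log2 fold change was −0.73 in LM9 versus HR1 (standard error 0.19, adjusted p = 0.0157 by edgeR) and −0.94 in LM9 versus LM1 (0.19, adjusted p = 0.0113). LM1 differed from HR1 by 0.21 (0.19, adjusted p = 0.416), which did not pass. HR1 replicate 1 was the lowest HR1 tumour, and the LM9 difference from HR1 was −0.79 (adjusted p = 0.00621) without it, while that of LM1 was 0.15 and did not pass. The call of LM9 versus LM1 was lost without LM1 replicate 1 (adjusted p = 0.0514).

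*Hey1*, a related repressor used for instance in blood vessels and bone, was close to absent in LM9. Its counts were 160, 103 and 268 in HR1 (5.32, 2.32 and 6.90 CPM), 88, 108 and 103 in LM1 (1.85, 2.45 and 2.62 CPM) and 2, 2 and 3 in LM9. Pooled over 3 tumours and scaled to library size, the LM1 level was 43.9 times that of LM9 (exact 95% interval 21.0 to 110.0) and the HR1 level 90.2 times (43.5 to 225.5), intervals that cover counting error only. The fitted log2 fold change was −6.46 in LM9 versus HR1 (standard error 0.57, adjusted p = 0.000113 by edgeR) and −5.39 in LM9 versus LM1 (0.55, adjusted p = 0.000755). LM1 lay −1.07 from HR1 (0.42, adjusted p = 0.0764), which did not pass, and the tumours of HR1 and LM1 overlapped. Leaving out HR1 replicate 1, the differences from HR1 were −6.39 in LM9, which passed, and −0.99 in LM1 (adjusted p = 0.0784), which did not. The LM1 difference passed when HR1 replicate 2, the lowest HR1 tumour, was left out (adjusted p = 0.0117). The change of LM1 and LM9 together thus came mainly from LM9, and with LM1 and LM9 fitted as a single group it did not pass (−2.04, adjusted p = 0.217). In RNA from many sorted cells at once, fewer expressing cells and less RNA per cell cannot be told apart.

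The pathway genes outside the 9 were read from a list of 89, of which 82 were listed and tested. With both LM models set against HR1, 42 of the 82 passed (51.2%, against 43.6% of all genes), 21 in each direction. With LM1 and LM9 fitted as a single group it was 25, where 4149 of all 14086 genes passed. In LM1 versus HR1 28 passed (11 higher, 17 lower), in LM9 versus HR1 41 (23 higher, 18 lower) and in LM9 versus LM1 19 (13 higher, 6 lower), or 34.1%, 50.0% and 23.2%, where 35.5%, 42.3% and 22.0% of all genes passed. The median log2 fold change of the 82 genes was −0.04 for LM1 and LM9 together and 0.16 for LM9 versus LM1. Counts over the few genes of a single role stand beside the same 43.6% and, in LM9 versus LM1, 22.0% of all genes. Leaving out HR1 replicate 1, 46 passed in LM1 and LM9 together (56.0% of all genes), 37 of them with the same sign as with all tumours and none with the opposite sign. Each other pathway gene whose value in LM1 and LM9 together is given here, *Dll4* apart, is among the 37. For LM9 versus LM1 34 passed (45.5% of all genes), with all 19 among them. With only the 6 LM tumours fitted it was 45 (56.3% of all genes). Only 5, 10 and 4 passed in LM9 versus LM1 without LM1 replicates 1, 2 and 3 (8.16%, 15.3% and 9.68% of all genes), and 3, 6 and 7 without LM9 replicates 1, 2 and 3 (8.51%, 10.3% and 9.84%). The LM1 count against HR1 fell to 18 without LM1 replicate 1 (22.1% of all genes) and 17 without LM1 replicate 2 (23.2%) and reached 42 without HR1 replicate 1 (52.8%). The LM9 count fell to 27 and 26 without LM9 replicates 1 and 2 (26.7% and 28.2%).

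Of the 4 other receptor and ligand genes tested, 1 passed in LM1 and LM9 together, where 43.6% of all genes did, and 2, *Notch4* and *Dll4*, without HR1 replicate 1 (56.0% of all genes). The first was *Notch4*, an endothelial receptor, with 0.746 to 1.40 CPM in HR1, 2.42 to 2.72 CPM in LM1 and 1.37 to 3.84 CPM in LM9 (log2 fold change 1.14, standard error 0.40, adjusted p = 0.0456 by edgeR). *Dll4*, a Delta-like ligand of vessel sprouting, is named because its levels, seen afterwards, split the models. It had 45.2, 2.30 and 0.206 CPM in HR1 replicates 1, 2 and 3, 34.7, 35.4 and 24.7 CPM in LM1 and 2.51, 3.36 and 2.32 CPM in LM9. LM1 and HR1 replicate 1 were thus high and the other 5 tumours low, and LM9 versus LM1 was −3.53 (standard error 1.39, adjusted p = 0.101), which did not pass. Without HR1 replicate 1 it did, at −3.54 (0.58, adjusted p = 0.0017). In LM1 and LM9 together the log2 fold change of *Dll4* was −0.77 (adjusted p = 0.587 by edgeR) with all tumours. Its sign turned without HR1 replicate 1, to 2.87 (adjusted p = 0.00607). Both genes are known from endothelium. The summed level of 9 listed endothelial markers was 15.8 to 130 CPM in HR1, 198 to 279 CPM in LM1 and 363 to 393 CPM in LM9, most of it *Cdh5*, *Flt1* and *Kdr*. Of the 9 markers 7 passed in LM1 and LM9 together, where 43.6% of all genes did. *Cdh5* and *Kdr* were higher and *Pecam1*, *Tie1*, *Emcn*, *Cldn5* and *Esam* lower, so most of the markers called went against the sum. *Pecam1*, a defining endothelial marker, lay between 0.383 and 6.42 CPM, and *Tek* was not among the listed genes. The part of host endothelial cells in these levels was not tested.

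*Hes6*, *Heyl* and *Hey2* were the other Hes and Hey genes tested, and each of the 3 passed as lower in LM9 than in HR1, where 21.9% of all genes were lower. *Hey2*, the closest relative of *Hey1*, had 510, 31 and 134 counts in HR1, 50, 56 and 39 in LM1 and 3, 6 and 1 in LM9. The pooled LM1 level was 14.9 times that of LM9 (exact 95% interval 7.87 to 31.71, counting error only), and the fitted log2 fold change of LM9 versus LM1 was −3.84 (standard error 1.14, adjusted p = 0.0430 by edgeR). The other members of this group were named after their values were seen. *Heyl* had 0, 16 and 4 counts in HR1, 12, 11 and 10 in LM1 and 0, 0 and 1 in LM9, too few to rest on. *Hes6*, which unlike its relatives is known to counteract *Hes1*, was abundant, at 110.0 to 261 CPM in HR1, 109 to 142 CPM in LM1 and 81.9 to 109 CPM in LM9. Its log2 fold change in LM9 versus HR1 was −1.003 (standard error 0.29, adjusted p = 0.0229), and −1.26 without HR1 replicate 1.

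Glycosylation enzymes add sugars to Notch and tune its response to ligands. In LM1 and LM9 together 7 of the 11 passed, 2 higher and 5 lower. *Gxylt1* and *Gxylt2*, which extend O-glucose with xylose, rose by 0.62 (standard error 0.15, adjusted p = 0.0104) and 2.41 (0.85, adjusted p = 0.0468 by edgeR). *Poglut1* and *Poglut2*, which attach the O-glucose, fell by 1.03 (0.17) and 1.02 (0.19) on the log2 scale. *Lfng*, the fringe enzyme that shifts receptors from Jagged towards Delta-like ligands, was the only one of the 11 to pass in LM9 versus LM1 with all tumours fitted by edgeR. It measured 38.4 to 45.1 CPM in LM1 and 22.5 to 28.0 CPM in LM9, a log2 fold change of −0.74 (0.19, adjusted p = 0.0230).

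Receptor cleavage genes, which encode the proteases that release the intracellular domain, passed in 3 of 10 cases in LM1 and LM9 together, all lower, a share under the 43.6% of all genes (23.6% lower). *Psen2*, a catalytic subunit of gamma-secretase, fell from 19.8 to 41.1 CPM in HR1 to between 5.52 and 6.96 CPM in the LM tumours (log2 fold change −2.18, standard error 0.22, adjusted p = 0.000208 by edgeR). *Aph1a*, a further subunit, fell by 0.37 (0.10).

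Ligands need endocytosis in the sending cell to pull on receptors, and 4 of the 8 genes of this role passed, 2 in each direction. *Neurl1b*, a ubiquitin ligase, rose by 1.56 (standard error 0.25, adjusted p = 0.00146 by edgeR), and the epsins *Epn1* and *Epn2* moved apart, at 0.81 (0.12) and −1.04 (0.10). *Mib2* and *Neurl2*, ubiquitin ligases, were higher in LM9 than in LM1, by 0.68 and 1.29.

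Of the 8 nuclear coactivators 5 passed in LM1 and LM9 together, 3 higher and 2 lower. The acetyltransferases *Kat2a* and *Ep300* rose by 1.03 (standard error 0.11) and 0.97 (0.21). In LM9 versus LM1 2 of the 3 Mastermind genes passed, in opposite directions: *Maml3* was 1.52 to 2.81 CPM in LM1 and 6.94 to 8.16 CPM in LM9 (1.72, standard error 0.37, adjusted p = 0.0138 by edgeR), while *Maml2* was 2.46 to 3.22 CPM and 0.473 to 0.773 CPM (−2.13, 0.58, adjusted p = 0.0311). *Maml1* did not pass (0.27, standard error 0.20, adjusted p = 0.358). *Kat2b* was also higher, by 0.66.

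Of the 15 nuclear corepressors 7 passed in LM1 and LM9 together, 4 higher and 3 lower, among them the RBPJ partner *L3mbtl3* (0.77) and the CtBP genes *Ctbp2* (0.63) and *Ctbp1* (−0.31). In LM9 versus LM1 it was 8, 6 higher and 2 lower, where 22.0% of all genes passed. All 82 pathway genes gave 19 calls in LM9 versus LM1, and 3 to 10 without any single LM tumour. *Cir1*, which bridges RBPJ to deacetylases, was higher in LM9 by 1.77 and *Tle2* by 1.48. *Tle1*, a Groucho corepressor on which Hes proteins rely, was lower, with 114 to 124 CPM in LM1 and 33.8 to 46.0 CPM in LM9 (−1.60, standard error 0.42, adjusted p = 0.0289 by edgeR), as was *Hdac2* (−0.53).

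Of the 12 genes of receptor turnover 7 passed, 5 higher and 2 lower. *Dtx3l*, a Deltex relative, was higher in both LM models and again higher in LM9 than in LM1, with 24.2 to 34.0 CPM in HR1, 40.4 to 53.8 CPM in LM1 and 115 to 142 CPM in LM9. *Fbxw7*, which marks the intracellular domain for degradation, rose by 0.78 (standard error 0.21, adjusted p = 0.0155 by edgeR), and *Sel1l* fell by 0.54 (0.11). *Numb*, an inhibitor that routes receptors to degradation, was higher in LM9 (27.7 to 33.3 CPM) than in LM1 (15.2 to 17.7 CPM), by 0.95 (0.15, adjusted p = 0.00376).

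Of 11 other described targets 6 passed in LM1 and LM9 together, 4 higher and 2 lower. *Sox9*, a progenitor factor, rose most, from 6.84 to 17.4 CPM in HR1 to 103 to 253 CPM in LM1 and 206 to 395 CPM in LM9 (log2 fold change 4.33, standard error 0.46, adjusted p = 0.000254 by edgeR), and *Myc*, a driver of growth, rose by 1.496 (0.21). *Id3* and *Gata2* fell by 2.35 (0.38) and 1.95 (0.42), and without HR1 replicate 1 by 1.69 and 0.95. In LM9 versus LM1 0 of the 11 targets passed, where 22.0% of all genes did, and their median log2 fold change was 0.43. Many pathways act on these genes besides Notch.

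**Figure D4:**
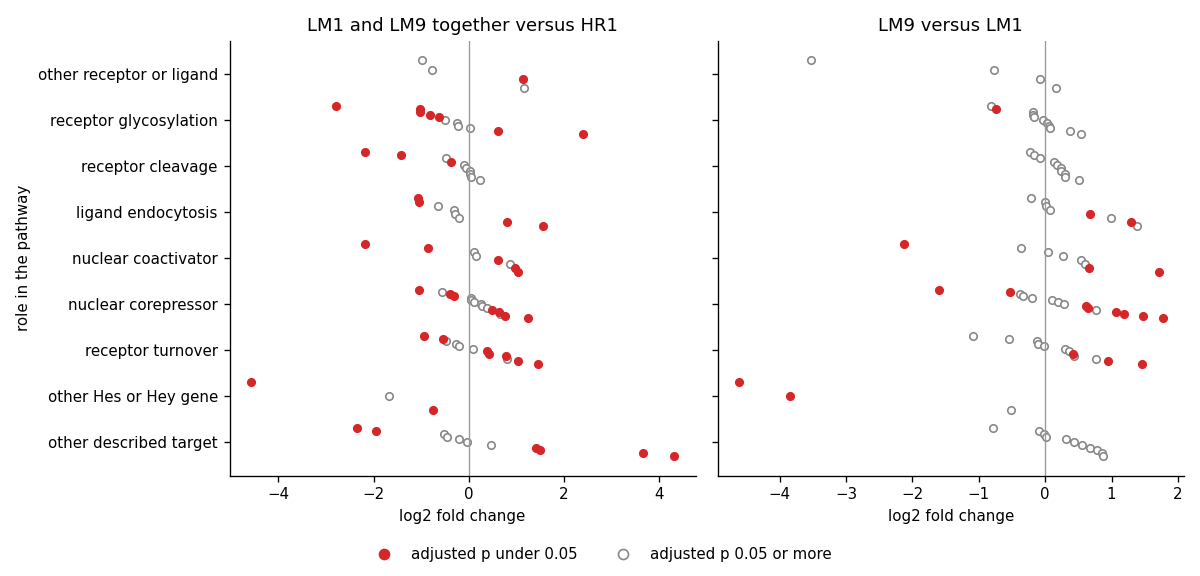
Log2 fold change of the 82 other Notch pathway genes by role, in LM1 and LM9 together versus HR1 (left) and LM9 versus LM1 (right), 1 point per gene, with filled points past an adjusted p of 0.05 in edgeR. Most roles hold points on both sides of 0, and filled points make up 42 of the 82 on the left and 19 on the right.

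The genes with the profile most like that of each Notch gene were found by the root mean square (RMS) difference of log2 CPM centred over the 9 tumours, among 12376 genes that averaged 1 CPM or more. For *Notch1* they were *Errfi1* (RMS 0.158), *Sowahc* (0.179) and *Spty2d1* (0.184), and for *Notch2* *Amotl2* (0.109), *Pik3ca* (0.130) and *Csf1* (0.151). *Rbpj* was followed by *Sorbs3* (0.107), *Cdkn1b* (0.148) and *Msi2* (0.152), *Jag1* by *4930577N17Rik* (0.157), *Cadps* (0.202) and *Col6a2* (0.210), and *Dll1* by *Dyrk1b* (0.247), *Abtb2* (0.257) and *Pstpip2* (0.276). For *Jag2* the nearest was *Bcl3* (0.295), then *Arrdc4* (0.296) and *Cfap43* (0.362). The match was loosest for *Notch3*, with *Met* (0.430), *Wnt10b* (0.470) and *Itpr3* (0.482), and for *Hey1*, with *Klhl23* (0.472), *Map2k6* (0.538) and *Pygo1* (0.612). None was sought for *Hes1*, whose model means spanned 0.96 on the log2 scale, less than the 1 required. These are descriptions over 9 tumours of 3 lines, without a test.

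The genes around the Notch genes were set beside them as a description. Of 43 tested genes that start within 1 Mb of *Notch1*, 3 were higher and 18 lower in LM1 and LM9 together, where 19.9% of all genes were higher and 23.6% lower (median log2 fold change −0.29, against 1.51 for *Notch1*). Of 23 genes near *Jag2* 15 were lower, beside the same 23.6% (median −0.76, against 2.31). Near *Notch2*, 13 genes had a median of 0.85, close to the 0.88 of *Notch2* itself, but it was 0.38 over the 10 genes within 500 kb. The 6 genes near *Hey1* had a median of 0.25 in LM9 versus LM1 (−0.04 over the 3 within 500 kb), against −5.39 for *Hey1*.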

How the data were processed

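RNA was measured by single-end sequencing of stranded mRNA libraries from 9 tumours, 3 per model, grouped by their labels. Per the study's methods, the authors used STAR for alignment (mm10) and QuasR to count 5′ read ends over the exon union of each gene. The deposited values are raw counts per Entrez gene, not normalized, and genes with low counts are left out of the tables by a rule not given in the sources used here. The methods for these RNA libraries give no versions of these tools.

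Symbols for 14085 of 14108 genes came from RefSeq (GRCm38.p6) and exon lengths from GENCODE. Counts were scaled by TMM (factors 0.928 to 1.05), 14086 genes passed edgeR's expression filter, and 1 model over the 3 groups was tested by edgeR 4.0.16 (quasi-likelihood F-test, robust, R 4.3.3), with Benjamini-Hochberg adjustment over all of them (threshold 0.05). The standard error given with an edgeR value is the absolute log2 fold change divided by the square root of the F statistic. The study itself used limma-voom, kept here as an alternative (limma 3.58.1). The other alternatives were DESeq2 1.42.0, RLE factors, library size only, no filter, at least 1 CPM in at least 3 tumours, the replicate number as a block, both LM models as a single group, only the tumours compared, and each tumour left out in turn. The testing scripts were tested on simulated data. Tables and figures were made with Python 3.11.15, pandas 2.3.3, numpy 2.4.6, scipy 1.17.1 and matplotlib 3.10.9. Reads carry no molecular identifiers, so intervals cover counting error only.

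The 9 genes, the lists and the rules were chosen with earlier results of these data known. Named besides the 9 were, per pathway role, up to 2 genes with the largest increases and 2 with the largest decreases in LM1 and LM9 together versus HR1 and in LM9 versus LM1, among those with a mean of at least 1 CPM, an adjusted p under 0.05 and no overlap, and for genes whose model means spanned at least 1 log2 unit the 3 most alike. *Notch4*, *Dll4*, *Hes6* and *Heyl* were named after their values were seen. Marker lists gave summed levels and counts of genes that passed, where 23.6% of all genes were lower in LM1 and LM9 together. The 10 leukocyte markers summed to 146 to 573 CPM in HR1, 134 to 141 CPM in LM1 and 188 to 219 CPM in LM9. Most of the LM9 sum was *Cd68* (107 to 138 CPM). In LM1 and LM9 together 7 of the 10 were lower, *Cd68* not among them. The 6 listed epithelial markers summed to 7.55 to 121 CPM, 158 to 181 CPM and 14.4 to 18.0 CPM, and 2 were lower. No 2 tumours of a model had counts within sampling noise of each other. Tumourspheres and knockout tumours were not analysed here.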

Additional observations from a re-analysis of the deposited data

Results flagged for a closer look

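For 4 of the 9 Notch genes the effect against HR1 differed between the LM models by the direct test of LM9 against LM1, by edgeR's quasi-likelihood test with adjustment over all genes, where 22.0% of all genes passed. *Notch1* was higher in LM9 by 0.96 on the log2 scale and *Rbpj* by 1.01. *Hes1* lay −0.94 and *Hey1* −5.39 from LM1. For each of the 4 every LM9 tumour lay outside the LM1 range. *Notch1* and *Rbpj* were thus higher, and the 2 target genes lower, in the same 3 tumours. Of the 3 other Hes and Hey genes 2 passed as lower in LM9 than in LM1. Of the 11 other described targets 0 passed, and their median log2 fold change was 0.43. The calls rest on few tumours: the count fell to 1 of the 9, *Hey1*, without LM1 replicate 1, where 8.16% of all genes passed. *Rbpj* lost its call without any single LM tumour, *Notch1* when LM1 replicate 1, LM1 replicate 3 or LM9 replicate 2 was left out, and *Hes1* without LM1 replicate 1. LM1 and LM9 are 1 line each, so the effect of the line and that of the model cannot be told apart.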

How the results depend on the processing

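All values are from edgeR unless another tool is named. Replicate numbers come from the titles and did not pair the tumours: the correlation of deviations between same-numbered tumours ranged from −0.117 to 0.162. With the replicate block 5, 4, 6 and 4 Notch genes passed in the 4 comparisons (both LM models together, LM1, then LM9 versus HR1, and LM9 versus LM1), the same numbers as without it. Other pathway genes fell to 33 for both LM models together, 22 in LM1 versus HR1 and 12 in LM9 versus LM1. All genes fell to 5234, 4204 and 2295 in the same comparisons. *Notch3* in LM9 versus HR1 became 0.0041 with the block and 0.72 in limma-voom, and *Rbpj* in LM1 and LM9 together −0.0054 with at least 1 CPM in at least 3 tumours. With only the 6 tumours compared, 2 Notch genes and 3008 of all genes passed in LM1 versus HR1, and 45 other pathway genes and 7709 of all genes in LM9 versus LM1. With LM1 and LM9 as a single group 25 of the 82 other pathway genes and 4149 of all 14086 genes passed. The causes were not tested. Leaving out each tumour in turn, the Notch genes passing ranged from 5 to 7, 2 to 6, 4 to 8 and 1 to 5, the other pathway genes from 30 to 46, 17 to 42, 26 to 46 and 3 to 34, and all genes from 4928 to 7902, 3121 to 7453, 3768 to 7862 and 1150 to 6413. Signs turned for values that did not pass with all tumours: *Dll1* ranged from −0.11 to 1.06 (together) and −0.40 to 0.76 (LM1), *Rbpj* from −0.21 to 0.42 (together) and *Notch3* from −1.07 to 0.35 (LM9), both passing only without HR1 replicate 1, and in LM9 versus LM1 *Jag1* from −0.28 to 0.0633 and *Jag2* from −0.40 to 0.0211. At 2 to 3 counts per tumour, *Hey1* in LM9 is limited by depth.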
